A study of Mus musculus with 18 samples.

Results

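The 40 genes described here encode the enzymes that make, recycle, use and break down glutathione, and they were taken by gene symbol from the 55335 genes of a count table of small intestinal crypts. They comprise 25 glutathione transferases (4 of the alpha class, 7 of mu, 3 of pi, 3 of theta, 2 of omega, Gstk1 of kappa, Gstz1 of zeta, the transferase-like Gstcd and 3 microsomal ones), 6 glutathione peroxidases, 3 synthesis genes, 2 reduction genes and 4 turnover genes. All 40 passed the filter on low counts, and they were chosen with earlier results of these data known. The crypts, the pockets of the epithelium where stem and progenitor cells divide, came from mice 8 to 12 weeks old. Both alleles of Prmt1, which encodes an arginine methyltransferase, carried LoxP sites in every mouse (Prmt1 fl/fl). KO mice also carried Vil-CreERT2, a Cre recombinase that tamoxifen activates and that the villin promoter drives in epithelial cells, and WT mice were littermates without it. Tamoxifen was given to all mice, WT included, at 2 mg a dose, with 2 doses by day 2 and 5 doses by days 7 and 14, counted from the first dose. Each of the 6 groups (KO and WT on days 2, 7 and 14) had 3 mice and 3 libraries, so 18 in all. The sexes of the mice were mixed, were not in the sample labels and were not modelled.

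Total counts per library ranged from 12844642 to 31493484. The level of Prmt1 itself was 54.1% of the WT mean in KO mice on day 2, 66.4% on day 7 and 60.9% on day 14, with every KO library below every WT library on each day. Levels are given as CPM, which scale the counts of a library to a common total by TMM, and differences as log2 fold changes of KO over WT from 1 edgeR quasi-likelihood model of all libraries. A gene is said to be higher or lower where its Benjamini-Hochberg adjusted p over the 21349 genes tested was under 0.05. Cell type markers differed as well. The summed level of 12 enterocyte markers was 16950 to 27380 CPM in KO and 11300 to 14320 CPM in WT on day 7, where Fabp1 and Fabp2 were higher and Lct was lower. On day 14 the sum was 13770 to 24960 CPM in KO and 5745 to 14650 CPM in WT, with 1 of 12 markers, Sis, higher. All 7 Paneth cell markers and 6 of 8 stem cell markers were lower on day 7, with sums at 0.261 and 0.44 of the WT mean, and all 8 enteroendocrine markers were higher, with a sum 2.41 times the WT mean, while the tuft cell sum was 0.646 of the WT mean. On day 14 all 8 enteroendocrine markers were again higher (sum 3.01 times the WT mean), and the Paneth, stem cell and proliferation sums were 0.477, 0.765 and 0.771 of the WT mean with every KO library below every WT library, although 1 marker of each list passed the test. Of 7 goblet cell markers, 2 were lower on day 7 and 1 on day 14, where the sum was 0.876 of the WT mean with every KO library below every WT library, and of 10 tested stromal, endothelial and muscle cell markers 2 were higher on day 7 (sum 1.59 times the WT mean, overlapping). No enterocyte, Paneth, stem cell, goblet or enteroendocrine marker was at 0 in any library, and Cdh5 and Pdgfra were at 0 in some.

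Glutathione is a peptide of glutamate, cysteine and glycine and the main soluble thiol of the cell. Glutamate-cysteine ligase, made of the catalytic subunit Gclc and the modifier subunit Gclm, carries out the limiting step of its synthesis, and Gss adds the glycine. Transferases couple glutathione to electrophiles from food, bile and lipid peroxidation, peroxidases oxidise it to remove peroxides, and Gsr returns the oxidised form to glutathione with NADPH. Conjugates leave the cell through transporters of the Abcc family and are trimmed by Ggt1 at the brush border. Many of these genes are known targets of NRF2 (Nfe2l2), which binds the antioxidant response element, and alpha transferases are known as abundant proteins of differentiated enterocytes.

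The core of the antioxidant response element, TGACNNNGC on either strand, was searched in RefSeq promoter windows (build GRCm38.p6, from 250 bases before to 50 bases after each gene start). Windows were found for 35 of the 40 genes, the exceptions being Gsta4, Gstt2, Gclc, Gsr and Oplah. The letters occurred in the windows of 7 of these 35 genes (20%) and of 14% of all genes in the same table. A gene can have several windows. By window, the letters were in 17.3% of the 52 windows of these genes and in 12.4% of all windows. Among genes that were higher in KO on day 7, 5 of 17 held them (29.4%), and among genes that passed the test in neither direction 2 of 17 did (11.8%), while Gstz1, which was lower, did not. By window this was 5 of 21 for the higher genes and 4 of 29 for those that passed in neither direction. The 7 genes were Gsta3, Gstm5, Gstm7, Mgst1, Gclm, Ggt1 and Ggct. Gsta3, with the smallest adjusted p of all 40 genes on day 7, and Gclm, the one gene of glutathione synthesis among the 7, are shown as examples of windows with the letters. The windows lie at chr1:21240335-21240634 and chr3:122245307-122245606, both on the plus strand, and capitals mark the match. In Gsta3 it starts 121 bases before the gene start, and in Gclm it starts 134 bases before it and is read on the opposite strand. No match in a window says only that these letters are not in it.
Gsta3: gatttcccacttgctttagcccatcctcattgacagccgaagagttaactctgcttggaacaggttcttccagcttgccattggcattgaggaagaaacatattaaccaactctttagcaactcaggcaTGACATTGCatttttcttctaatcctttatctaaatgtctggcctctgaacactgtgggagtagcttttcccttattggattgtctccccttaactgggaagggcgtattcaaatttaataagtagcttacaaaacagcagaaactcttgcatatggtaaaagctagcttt
Gclm: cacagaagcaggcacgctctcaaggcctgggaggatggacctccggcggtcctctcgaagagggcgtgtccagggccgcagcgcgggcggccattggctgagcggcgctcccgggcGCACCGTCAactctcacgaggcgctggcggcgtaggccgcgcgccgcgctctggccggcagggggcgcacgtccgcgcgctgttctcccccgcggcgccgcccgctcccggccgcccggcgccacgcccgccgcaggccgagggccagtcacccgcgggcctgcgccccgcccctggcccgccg

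The glutathione genes showed no called change on day 2, 20 increases on day 7 and 5 on day 14, while the test of the difference between days 14 and 7 called 0 of the 40. On day 2, 0 of 40 genes passed the test in edgeR and in DESeq2, 0 had an unadjusted p under 0.05, and the median log2 fold change was -0.13 (-0.01 over all genes tested). Of all genes tested, 0.0281% were higher and 0.00468% lower in KO on that day. On day 7, 20 of the 40 were higher and 1, Gstz1, was lower, against 7.11% of all genes higher and 10.2% lower. The median log2 fold change of the 40 genes was 0.73, that of all genes was 0.02, and 24 of the 40 had an unadjusted p under 0.05, as did 29.9% of all genes. On day 14, 5 were higher (Gsta2, Gsta3, Gstm1, Gstm3 and Ggct) and 1, Gstz1 again, was lower, against 3.23% and 4.69% of all genes. The median had fallen to 0.30, with 16 of the 40 and 21.6% of all genes at an unadjusted p under 0.05. The libraries are bulk tissue, so that fewer cells of a type and less RNA per cell cannot be told apart.

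The day 14 count depended on the model more than the day 7 count did. Deviations of libraries with the same replicate number correlated weakly on day 14 (0.227, 0.18 and 0.159, against 0.048, 0.158 and 0.381 on day 2). The labels do not say that the number pairs mice. A fit with that number as a block within each day was added after seeing the data. It called 14 genes higher and 1 lower on day 14, against 4.53% and 5.33% of all genes. The 9 added were Gsta1, Gsta4, Gstm2, Gstm4, Gstm7, Gstp1, Gpx3, Gpx4 and Ggt1. DESeq2 called 10 higher and 1 lower, against 4.37% and 5.4% of all genes. Leaving out WT day 14 replicate 2, the WT library of that day with the highest level of many of these genes, gave 10 higher and 0 lower, against 2.09% and 3.26% of all genes, and the call for Gstz1 was lost. Every KO library lay above every WT library for 20 of the 40 genes on day 7 and 11 on day 14 (15.9% and 12.4% of all genes), and below for 3 on each of these days (17.7% and 14.1%). Those below were Gstt1, Gstz1 and Oplah on day 7 and Gstt2, Gstz1 and Chac2 on day 14. On day 2 the KO libraries lay above for 0 genes and below for Gstp3, Gstz1 and Mgst2, against 4.3% and 3.86% of all genes.

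**Figure D1:**
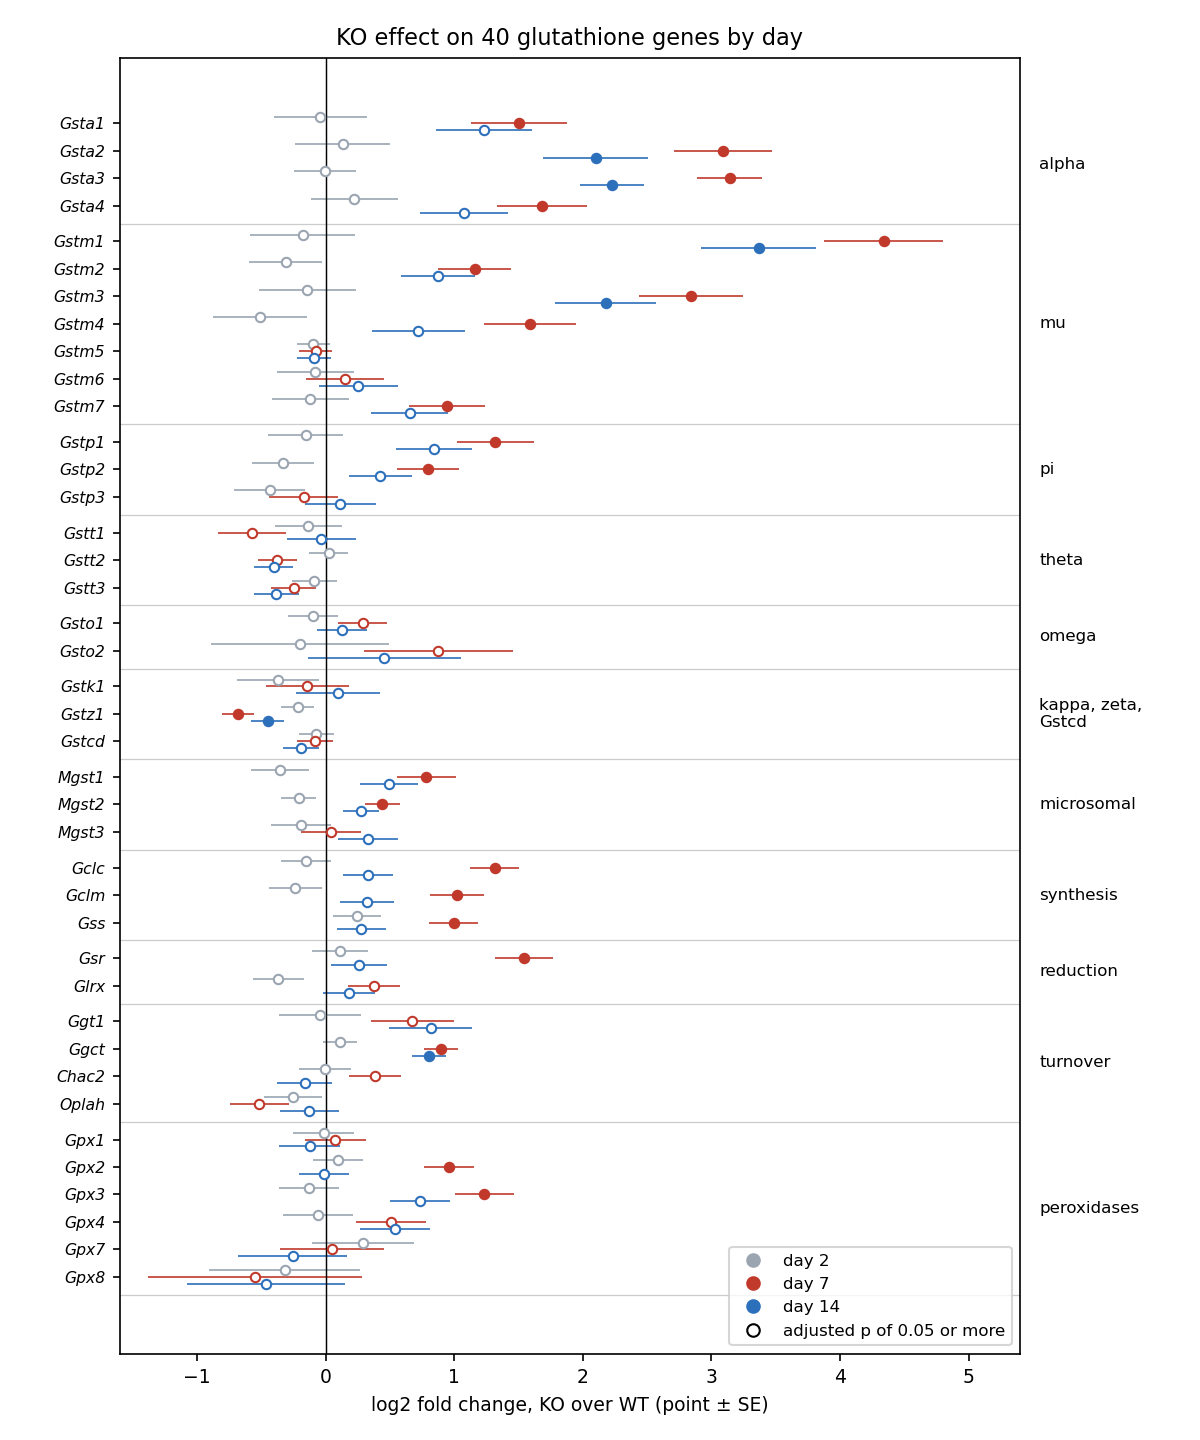
Log2 fold change of KO over WT (x axis) with its SE for the 40 genes, by class and day, with filled points where the adjusted p was under 0.05. Day 2 points lie near 0, Gstm1, Gsta3, Gsta2 and Gstm3 have the largest day 7 values, and Gstm1 is at 4.34 on day 7 and 3.37 on day 14.

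The alpha transferases, which conjugate lipid peroxidation products and bind bile acids and haem, were all 4 higher in KO on day 7. Gsta3 was at 58.21, 48.37 and 42.09 CPM in KO day 7 replicates 1 to 3 and at 4.389, 5.751 and 6.745 CPM in WT. On day 14 it was at 22.14, 20.25 and 27.93 CPM in KO and at 3.324, 5.251 and 6.163 CPM in WT, and on day 2 its 6 libraries lay between 5.96 and 11.73 CPM. The KO libraries of both later days were above all 9 WT libraries of the study, those of day 7 being the highest. The log2 fold change was 3.14 ± 0.25 (SE, adjusted p = 1.93e-07, edgeR) on day 7 and 2.23 (adjusted p = 1.9e-05) on day 14.

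Gsta2 followed the same order at a lower level, with 15.96, 9.722 and 5.633 CPM in KO and 1.259, 1.214 and 1.183 CPM in WT on day 7. On day 14 its KO libraries were at 2.53, 4.29 and 4.587 CPM and its WT libraries at 0.3777, 1.185 and 0.9268 CPM. The groups did not overlap on either day, and KO replicate 1 of day 7 was the highest of all libraries. Its log2 fold change was 3.09 ± 0.38 on day 7 (adjusted p = 2.11e-05, edgeR) and 2.10 on day 14 (adjusted p = 0.00259). Of its 100-base stretches of transcript, 28.4% also occur in Gsta1 or its near copies Gm10639 and Gm3776, and multi-mapped fragments did not enter the counts.

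Gsta4, the alpha enzyme known for the aldehyde 4-hydroxynonenal, was at 157.5, 126.4 and 77.98 CPM in KO and 36.7, 42.36 and 33.86 CPM in WT on day 7. On day 14 it was at 48.49, 77.47 and 66.51 CPM in KO and at 15.94, 49.63 and 24.98 CPM in WT, where WT replicate 2 lay above the lowest KO library. The log2 fold change was 1.68 ± 0.35 on day 7 (adjusted p = 0.00357, edgeR) and 1.08 on day 14 (adjusted p = 0.0715). Gsta1 was at 136.1, 109.7 and 62.79 CPM in KO and 32.09, 44.47 and 32.5 CPM in WT on day 7, and at 42.96, 55.89 and 52.95 CPM against 8.838, 32.26 and 22.75 CPM on day 14. Its groups did not overlap on either day, with log2 fold changes of 1.504 ± 0.37 (adjusted p = 0.0114) and 1.23 (adjusted p = 0.0583). Its day 7 call was lost without KO replicate 1 or without WT replicate 1 of that day (adjusted p = 0.0617 and 0.0527). As 80.6% of its 100-base stretches are shared with Gm3776, Gsta2 or Gm10639, the value for Gsta1 is uncertain.

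The mu transferases, which detoxify epoxides and quinones, held the largest difference of the 40 genes. Gstm1 was at 1757, 936.5 and 636.9 CPM in KO and at 47.64, 45.62 and 71.26 CPM in WT on day 7. It was at 429.8, 396.5 and 646.8 CPM in KO and 24.4, 60.13 and 57.69 CPM in WT on day 14, and between 45.42 and 107.4 CPM in the 6 libraries of day 2. Each KO library of days 7 and 14 was above every other library, and KO replicate 1 of day 7 was highest. The log2 fold change was 4.34 ± 0.46 (adjusted p = 1.7e-05, edgeR) on day 7 and 3.37 (adjusted p = 0.000231) on day 14.

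Gstm3 was at 1031, 746.8 and 441.9 CPM in KO and at 105.2, 92.33 and 112.7 CPM in WT on day 7. On day 14 it was at 387.4, 367.8 and 519.1 CPM in KO and at 38.75, 132.8 and 109.6 CPM in WT. Its KO libraries of both days lay above all WT libraries, including the highest of day 2 (221 CPM), and WT day 14 replicate 1 was the lowest of the study. Its log2 fold change was 2.84 ± 0.40 on day 7 (adjusted p = 0.00018, edgeR) and 2.18 on day 14 (adjusted p = 0.00242). Of the transcripts' 100-base stretches, 13.8% in Gstm3 and 5.86% in Gstm1 also occur in relatives or pseudogenes.

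The other mu genes were expressed at lower levels. Gstm2 was at 44.78, 39.59 and 28.43 CPM in KO against 15.54, 18.15 and 16.86 CPM in WT on day 7, and at 24.77, 33.43 and 33.46 CPM against 10.8, 24.95 and 13.81 CPM on day 14. Gstm4 was at 28.19, 14.99 and 10.96 CPM in KO against 6.116, 5.815 and 6 CPM in WT on day 7, and at 9.277, 13.12 and 13.56 CPM against 3.324, 8.765 and 9.268 CPM on day 14. The groups of both genes were apart on day 7, while on day 14 those of Gstm2 overlapped and the lowest KO library for Gstm4 barely exceeded the highest WT library. On day 7 the log2 fold changes were 1.16 ± 0.28 for Gstm2 (adjusted p = 0.0095, edgeR) and 1.59 ± 0.36 for Gstm4 (adjusted p = 0.00556), and on day 14 neither passed (0.87 and 0.72). Gstm7 rose by 0.95 on day 7 (adjusted p = 0.0342), a call lost in 5 of the 6 fits that left out a library of that day. Gstm5 and Gstm6 did not pass on any day, with day 7 values of -0.08 and 0.15, and fragments over 13.9% of the exon bases of Gstm5 may come from 4933431E20Rik on the opposite strand, which had 61961 counts over all libraries against 5361.

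**Figure D2:**
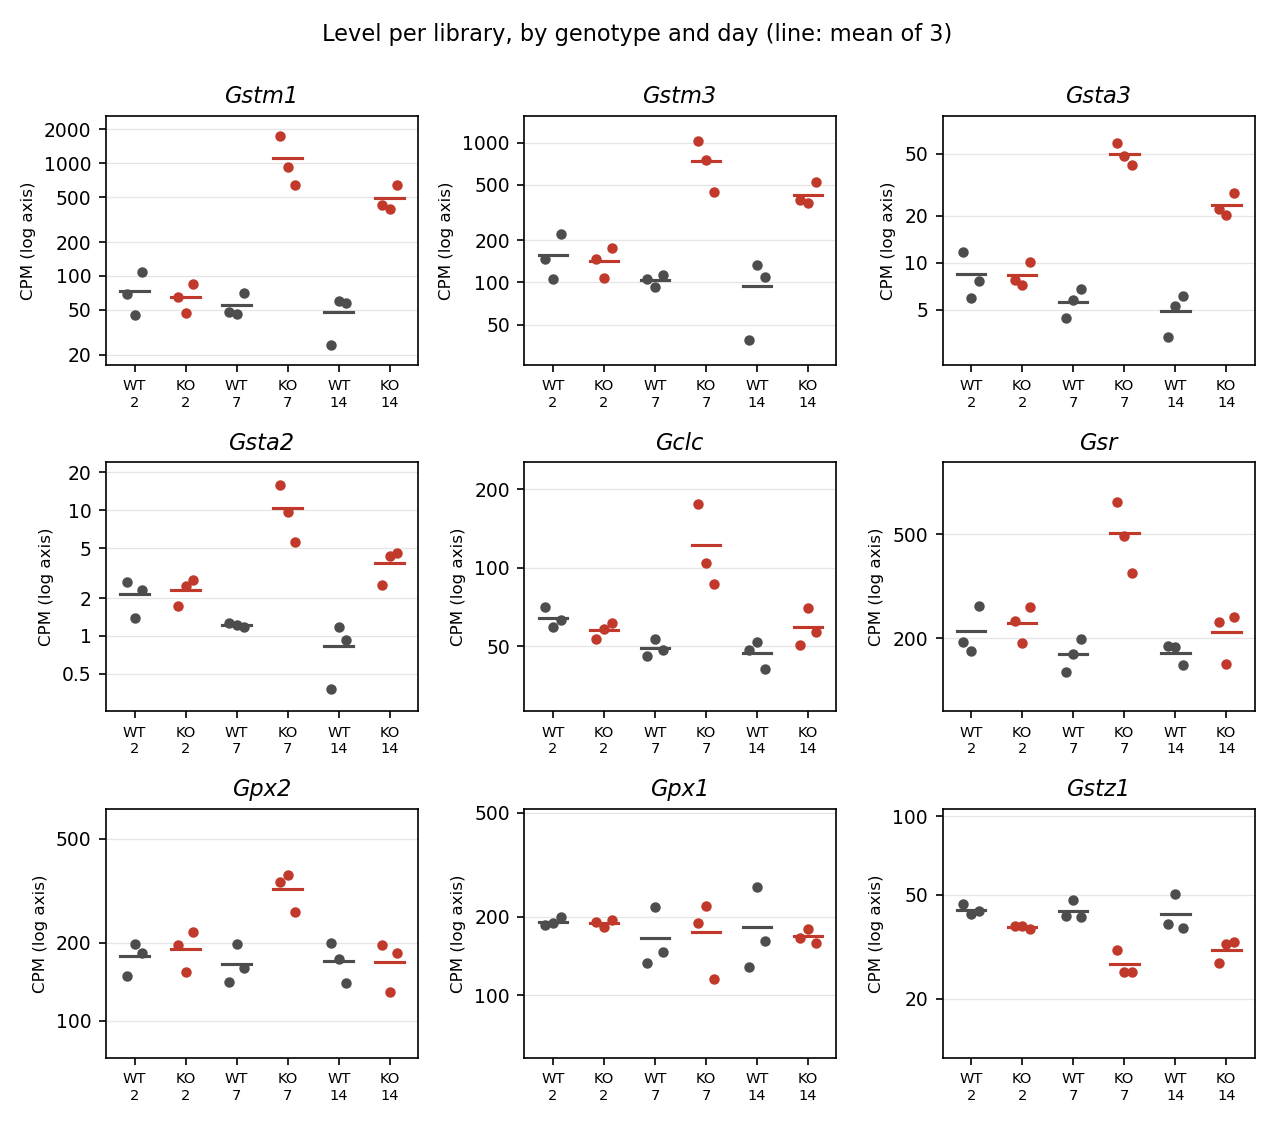
Level of 9 genes in CPM (log axis) in each library, in columns by genotype and day, with a line at the mean of 3. The KO libraries of days 7 and 14 lie above all WT libraries for Gstm1, Gstm3 and Gsta3, those of day 7 alone for Gsta2, Gclc, Gsr and Gpx2, the groups mix for Gpx1, and Gstz1 lies lower in KO.

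The 7 mu genes form a cluster on chromosome 3 (mm10, 107895821 to 108044894), in the order Gstm5, Gstm7, Gstm6, Gstm3, Gstm2, Gstm1 and Gstm4, with Gstm5 on the plus strand and the others on the minus strand. The day 7 log2 fold changes did not follow the order along the chromosome. Gstm6, with 0.15, lay between Gstm7 with 0.95 and Gstm3 with 2.84, and Gstm2, with 1.16, lay between Gstm3 and Gstm1. The alpha genes Gsta1, Gsta2 and Gsta4 lie on chromosome 9 with Gclc, and Gsta3 lies on chromosome 1.

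**Figure D3:**
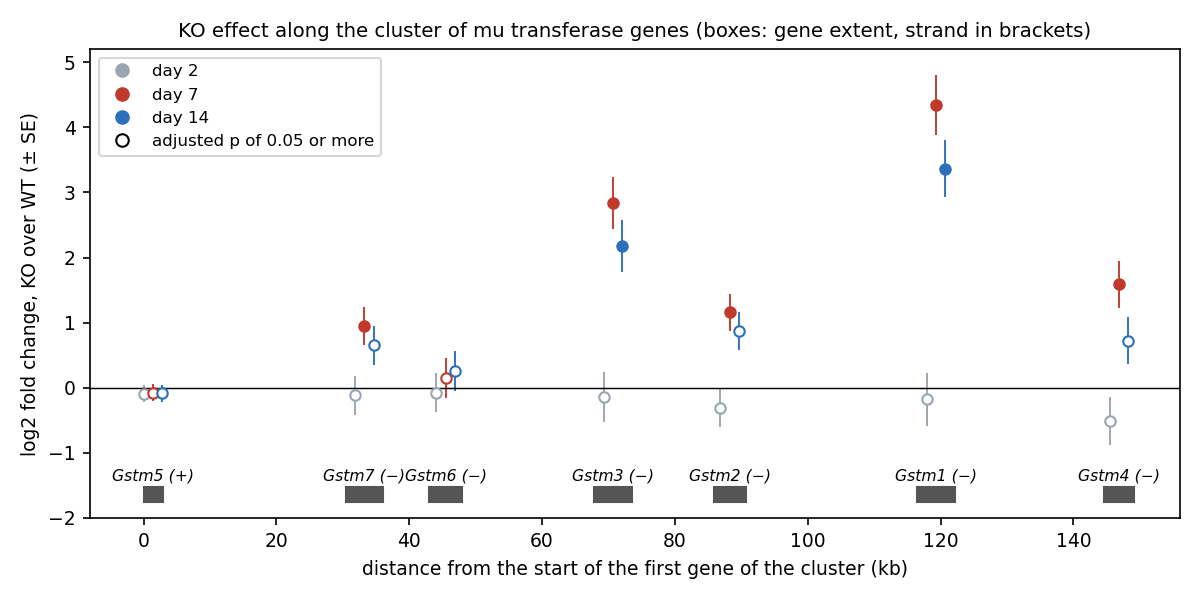
Log2 fold change of KO over WT with its SE (y axis) for the 7 mu transferase genes, placed by distance from the start of the cluster in kb (x axis), with boxes for the genes. Gstm1 and Gstm3 stand highest on days 7 and 14, their neighbours Gstm2 and Gstm6 lie lower, and Gstm5 stays near 0.

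The pi transferases, cytosolic enzymes with a broad range of electrophilic substrates, split into Gstp1 and Gstp2 on the one hand and Gstp3 on the other. Gstp1 was at 254.9, 179.6 and 129.8 CPM in KO and 59.19, 85.24 and 81.82 CPM in WT on day 7, and at 114, 137.6 and 130.4 CPM against 42.53, 104.5 and 65.71 CPM on day 14. All KO libraries exceeded all WT libraries on both days. It differed by 1.32 ± 0.30 on the log2 scale on day 7 (adjusted p = 0.00566, edgeR) and 0.84 on day 14 (adjusted p = 0.0969). Gstp2 rose by 0.80 on day 7 (adjusted p = 0.0277), a call lost in 4 of 6 fits without a library of that day, and Gstp3 was at -0.17. Gstp1 shares 25.1% and Gstp2 46.9% of 100-base stretches with each other or with Gstp-ps.

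Of the remaining 11 transferases, Mgst1 and Mgst2 were higher and Gstz1 was lower on day 7, and the other 8 did not pass. Of the omega enzymes, which act as thiol transferases and dehydroascorbate reductases, Gsto1 was at 227.9, 244.2 and 184.7 CPM in KO and 153.5, 212.6 and 172.3 CPM in WT on day 7, with overlapping groups (log2 fold change 0.29). On day 14 it was at 185.4, 232.6 and 226.3 CPM in KO and 144.6, 257.4 and 187.4 CPM in WT, again overlapping. Gsto2 had at most 18 counts in a library. The theta genes Gstt1, Gstt2 and Gstt3, whose enzymes act on small halogenated compounds, had day 7 values of -0.57, -0.38 and -0.25, none of which passed. The KO libraries of Gstt1 lay below its WT libraries on day 7 (at most 12.14 CPM against at least 13.97 CPM). Gstt1 was lower with only the groups compared (-0.583, adjusted p = 0.0484, edgeR) and with the replicate block within each day (-0.571, adjusted p = 0.0347).

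Gstz1, the maleylacetoacetate isomerase of tyrosine breakdown, was the only gene of the 40 that was lower in KO on days 7 and 14. It was at 30.77, 25.27 and 25.24 CPM in KO and 41.41, 47.92 and 41.08 CPM in WT on day 7, and at 27.3, 32.36 and 32.92 CPM against 38.83, 50.18 and 37.4 CPM on day 14. On day 2 it was at 37.88, 38.06 and 36.89 CPM in KO and 45.96, 42.17 and 43.2 CPM in WT, so that its KO libraries were below its WT libraries on all 3 days. The log2 fold change was -0.22 on day 2 (adjusted p = 0.999, edgeR), -0.68 ± 0.13 on day 7 (adjusted p = 0.00104) and -0.45 on day 14 (adjusted p = 0.0324). The day 14 call was lost in 4 of the 6 fits without a library of that day. Strand was not used in the counting, and 9.14% of the exon bases of Gstz1 overlap Pomt2 on the opposite strand. Gstk1, an enzyme of mitochondria and peroxisomes, and Gstcd had day 7 values of -0.14 and -0.08.

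The microsomal transferases are membrane proteins of another fold. Mgst3 had the highest mean level per kilobase of the 3 over all 18 libraries. In KO on day 7 Mgst1 was higher, with a mean of 139.7 CPM per kilobase against 135.5 for Mgst3. Mgst3 was at 175.2, 167.4 and 103.4 CPM in KO and 115.9, 181.6 and 137.2 CPM in WT on day 7, and at 124.2, 138.8 and 162.6 CPM against 76.9, 144.6 and 117.6 CPM on day 14. The groups of Mgst3 overlapped on both days (log2 fold changes 0.04 and 0.33). Mgst1 rose by 0.78 (adjusted p = 0.0218, edgeR) and Mgst2 by 0.44 (adjusted p = 0.0312) on day 7. Both calls were lost in several fits without a library of that day, 4 of 6 for Mgst1 and 3 of 6 for Mgst2, and the libraries of Mgst1 overlapped.

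The number of members that passed is given by class, to be read against 7.11% of all genes higher and 10.2% lower on day 7 and 3.23% and 4.69% on day 14. Of the 14 alpha, mu and pi genes 11 were higher on day 7 (median log2 fold change 1.41) and 4 on day 14 (0.86), while of the 11 other transferases 2 were higher and 1 lower on day 7 (median -0.08) and 1 was lower on day 14 (0.10). Of the 9 genes of synthesis, reduction and turnover 5 were higher on day 7 (median 0.90) and 1 on day 14 (0.28), and of the 6 peroxidases 2 on day 7 (0.29) and 0 on day 14 (-0.07, with Gpx3 at an unadjusted p under 0.05). The replicate block within each day was chosen after seeing the data. With it, the counts higher on day 14 were 10 of the 14 alpha, mu and pi genes, 2 of the 9 genes of synthesis, reduction and turnover (Ggct and Ggt1) and 2 of the 6 peroxidases (Gpx3 and Gpx4). No test between classes was made.

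The summed CPM of the mu class was 1945 ± 889 (SD, n = 3) in KO and 214 ± 23.2 in WT on day 7, 9.09 times the WT mean, and 5.06 times on day 14. The alpha sum was 3.51 and 2.48 times the WT mean on these days, the pi sum 2.31 and 1.71 times, the synthesis sum 2.16 and 1.24 times and the peroxidase sum 1.49 and 1.04 times. The mu genes thus made up 51% to 61.9% of all transferase CPM in KO libraries of day 7 and 42.7% to 51.7% in those of day 14, against 13.2% to 21.9% in the other 12 libraries. The theta sum lay lower in KO on day 7, at 0.775 times the WT mean.

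**Figure D4:**
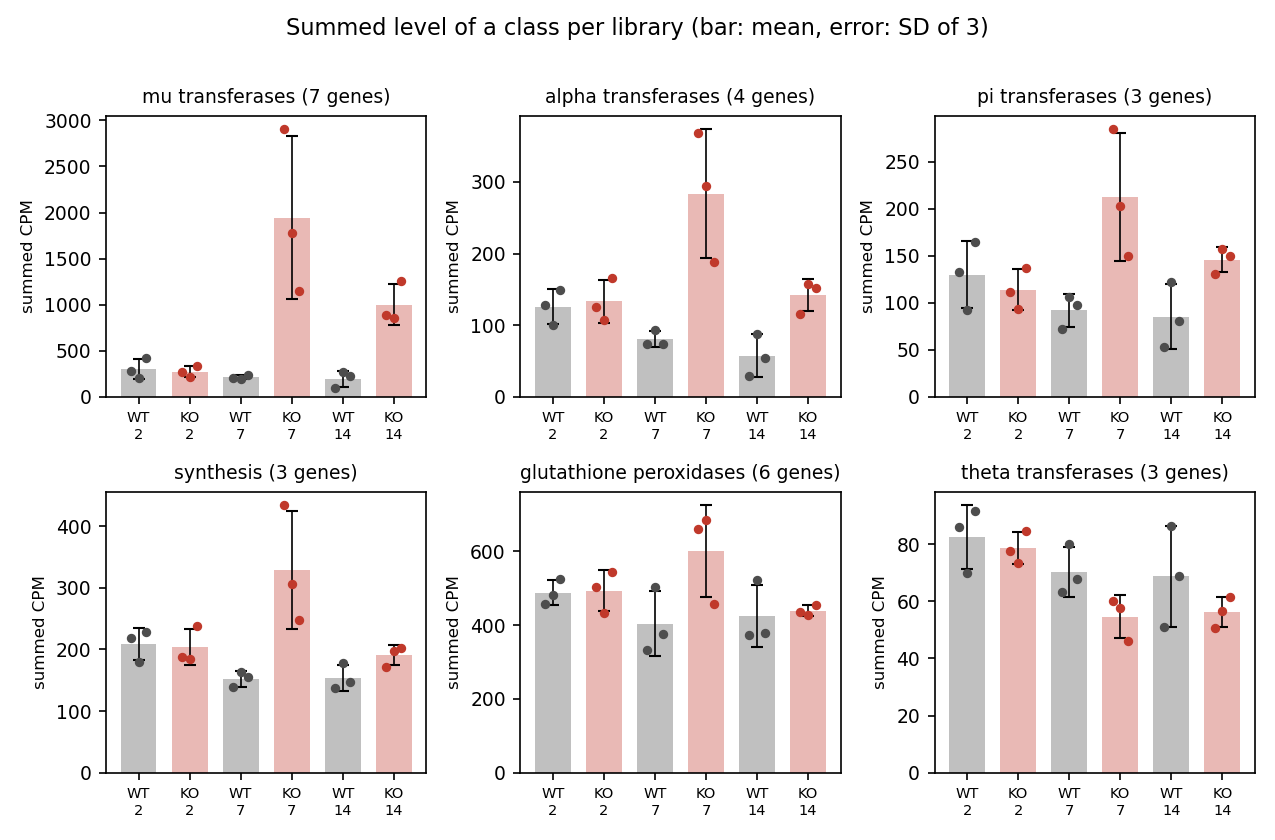
Summed CPM of 6 classes per library (points), with bars at the mean of 3 and error bars of 1 SD, by genotype and day. The mu, alpha, pi and synthesis sums of KO day 7 libraries lie above all WT sums of that day, the peroxidase sums overlap, and the theta sums lie below.

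All 3 synthesis genes were higher on day 7 and none passed on day 14. Gclc was at 175.2, 104.4 and 86.72 CPM in KO and 45.77, 53.29 and 48.44 CPM in WT on day 7, and at 50.71, 70.15 and 56.8 CPM against 48.57, 52.04 and 40.87 CPM on day 14. The groups were apart on day 7 and overlapped on day 14, with log2 fold changes of 1.31 ± 0.19 (adjusted p = 0.000121, edgeR) and 0.33 (adjusted p = 0.349). Gclm was at 109.5, 78.16 and 59.47 CPM in KO and 40.33, 48.43 and 33.29 CPM in WT on day 7, and at 45.91, 63.78 and 54.3 CPM against 34.52, 49.08 and 47.04 CPM on day 14. Its day 7 groups were apart, but the KO libraries at 78.16 and 59.47 CPM were within the WT range of day 2 (58.63 to 88.11 CPM). The log2 fold changes of Gclm were 1.02 ± 0.21 (adjusted p = 0.00236) and 0.32 (adjusted p = 0.402). Gss was at 149.6, 123 and 101.8 CPM in KO and 52.75, 61.79 and 73.36 CPM in WT on day 7, and at 75.21, 64.15 and 91.13 CPM against 54.31, 76.76 and 58.71 CPM on day 14. Here too the groups separated on day 7 only, with log2 fold changes of 0.995 ± 0.19 (adjusted p = 0.00132) and 0.28 (adjusted p = 0.437), and 6.68% of the exon bases of Gss overlap Acss2 on the opposite strand.

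Gsr, the glutathione reductase, was at 665.8, 493.2 and 357.1 CPM in KO and 148.6, 173.5 and 198.5 CPM in WT on day 7. On day 14 it was at 230.9, 159.3 and 240.8 CPM in KO and 185.8, 184.5 and 158 CPM in WT. The day 7 KO libraries were above all other 15 libraries, whereas the day 14 groups overlapped. In log2 terms the KO effect was 1.54 ± 0.22 on day 7 (adjusted p = 9.97e-05, edgeR) and 0.26 on day 14 (adjusted p = 0.553). Glrx, the glutaredoxin that removes glutathione from protein thiols, had 0.38 and 0.18 and did not pass.

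Among the turnover genes, Ggct, the gamma-glutamylcyclotransferase, was higher on both days. It was at 17.92, 16.74 and 15.81 CPM in KO and 10.18, 9.457 and 7.446 CPM in WT on day 7, and at 17.18, 17.41 and 15.99 CPM against 9.216, 9.674 and 10.1 CPM on day 14. Its replicates lay close together and its log2 fold changes were 0.90 ± 0.13 (adjusted p = 0.000115, edgeR) and 0.80 (adjusted p = 0.000727). Ggt1, which cleaves extracellular glutathione and its conjugates, was at 392.9, 287.2 and 295.1 CPM in KO and 214.3, 190.3 and 205.9 CPM in WT on day 7. Its groups were apart on days 7 and 14, but its log2 fold changes of 0.68 and 0.82 did not pass (adjusted p = 0.168 and 0.139). The day 7 value passed with only the groups compared (0.665, adjusted p = 0.0181, edgeR) and the day 14 value with the replicate block within each day (0.93, adjusted p = 0.0208). Chac2, which degrades glutathione in the cytosol, and Oplah, the oxoprolinase, had day 7 values of 0.38 and -0.52 and did not pass. The KO libraries of Oplah lay below its WT libraries on day 7 (at most 8.849 CPM against at least 11.01 CPM). Oplah was lower that day with the replicate block within each day (-0.515, adjusted p = 0.0402, edgeR).

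The peroxidases divided by gene. Gpx2, the form of the gastrointestinal epithelium, was at 339.9, 363.5 and 262.8 CPM in KO and 141.3, 197.2 and 159.1 CPM in WT on day 7. On day 14 it was at 194.9, 129.3 and 182.2 CPM in KO and 199.5, 172.9 and 139.4 CPM in WT, with overlapping groups. The log2 fold change was 0.96 ± 0.20 on day 7 (adjusted p = 0.00226, edgeR) and -0.02 on day 14 (adjusted p = 0.978). Gpx3, the secreted form, was at 7.337, 6.598 and 7.816 CPM in KO and 3.31, 1.853 and 3.942 CPM in WT on day 7, and at 6.114, 7.381 and 5.396 CPM against 3.55, 3.633 and 4.171 CPM on day 14. Its KO libraries of both days exceeded all WT libraries, with log2 fold changes of 1.23 ± 0.23 (adjusted p = 0.00113) and 0.73 (adjusted p = 0.0609).

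Gpx1, the widely expressed cytosolic form, was at 189.1, 219.3 and 114.9 CPM in KO and 132.7, 218.2 and 146.2 CPM in WT on day 7, and at 166, 179.6 and 157.7 CPM against 128.4, 258.7 and 161.4 CPM on day 14. Its groups overlapped on both days and its log2 fold changes were 0.08 and -0.13. Gpx4, which reduces lipid hydroperoxides in membranes, had 0.51 on day 7 and 0.54 on day 14 with overlapping groups, and 25.2% of its 100-base stretches also occur in pseudogenes. Gpx7, an enzyme of the endoplasmic reticulum, had 0.05 on day 7, and Gpx8, its relative there, had at most 16 counts in a library.

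The KO effect of day 7 differed from that of day 2 for 12 of the 40 genes, against 4.37% of all genes, and was larger on day 7 for each of them. They were Gsta2, Gsta3, Gstm1, Gstm2, Gstm3, Gstm4, Mgst1, Gpx3, Gclc, Gclm, Gsr and Ggct. The count was 7 without KO day 2 replicate 1, KO day 2 replicate 2, KO day 7 replicate 1 or WT day 7 replicate 3, where 2.52%, 3.19%, 1.98% and 2.66% of all genes were called. It was 18 in DESeq2, against 6.57% of all genes. Between days 14 and 7 the effect differed for 0 of 40 genes (0% of all genes), also in DESeq2. At an unadjusted p under 0.05, which 4.46% of all genes had, it was smaller on day 14 for 6 genes, namely Gsr by -1.29 ± 0.31 (SE), Gclc by -0.99, Gpx2 by -0.97, Gsta3 by -0.92, Gss by -0.72 and Gclm by -0.70, and with no filter on low counts Gsr passed (-1.28, adjusted p = 0.00917, edgeR).

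In WT mice most of the 40 genes had negative log2 fold changes from day 2 to the later days, and how many passed the test depended on the tool. DESeq2 called 3 lower on day 7 and 11 lower on day 14, against 5.22% and 4.72% of the 15968 genes to which it gave an adjusted p, and edgeR called 1 and 2. An unadjusted p under 0.05 was found in edgeR for 12 and 19 of the 40 genes, against 22.4% and 20% of all genes. From day 2 to day 7 the log2 fold change was negative for 37 of 40 genes (median -0.43) and for 48.8% of all genes, and 1, Glrx, was lower (-0.97, adjusted p = 0.0422, edgeR), against 0.553% of all genes called in either direction. From day 2 to day 14 Glrx (-0.96, adjusted p = 0.0275) and Ggt1 (-1.33, adjusted p = 0.0481) were lower, against 1.61% of all genes, with 35 of 40 negative (median -0.46) and 48.9% of all genes. These calls rested on few libraries. Both counts were 0 without WT day 2 replicate 1 or replicate 3 and rose to 2 and 6 without replicate 2 (against 2.43% and 3.23% of all genes). The first was 0 without WT day 7 replicate 1 or 3. The second was 0, 4 and 1 without WT day 14 replicates 1, 2 and 3 (against 0.214%, 1.66% and 0.719% of all genes). The summed enterocyte markers were 15670 to 34860 CPM in WT on day 2, above the 11300 to 14320 CPM of WT on day 7.

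Since most WT log2 fold changes between days were negative, though few passed in edgeR, KO levels were also set against all 9 WT libraries. On day 7 the 3 KO libraries were above all 9 for 13 of the 40 genes (7.07% of all genes), namely Gsta2, Gsta3, Gsta4, Gstm1, Gstm2, Gstm3, Mgst2, Gpx2, Gpx3, Gclc, Gss, Gsr and Ggct. On day 14 this held for 5 (5.4% of all genes), namely Gsta3, Gstm1, Gstm3, Gpx3 and Ggct. The 7 other genes that were higher on day 7, namely Gsta1, Gstm4, Gstm7, Gstp1, Gstp2, Mgst1 and Gclm, did not exceed all WT libraries.

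The libraries also differed in the sum of the 12 enterocyte markers. WT day 2 libraries, with enterocyte sums of 24760, 15670 and 34860 CPM, had 69.33, 45.42 and 107.4 CPM of Gstm1, whereas the KO day 7 libraries, with 27380, 19440 and 16950 CPM of these markers, had 1757, 936.5 and 636.9 CPM. Ggt1 was at 328.3, 217.2 and 506.5 CPM in the same WT day 2 libraries and at 392.9, 287.2 and 295.1 CPM in KO on day 7, which overlap. The part of the content of enterocytes and of the other cell types in these and the other differences was not tested.

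**Figure D5:**
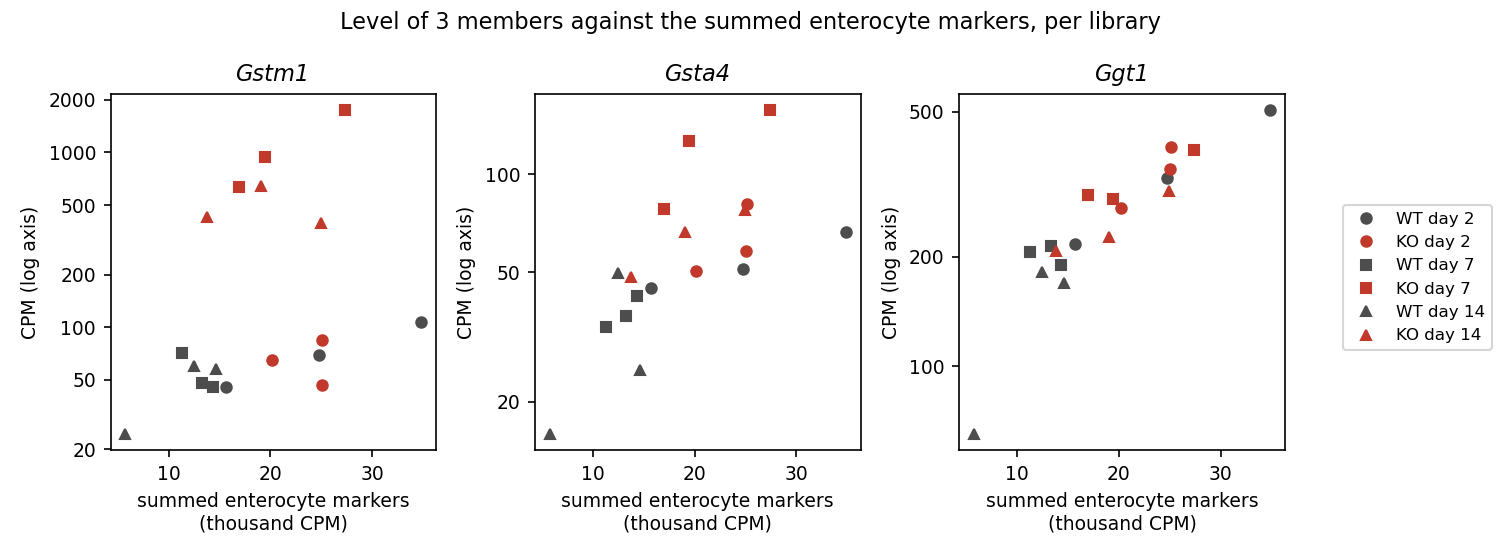
Level of Gstm1, Gsta4 and Ggt1 in CPM (log axis) against the summed level of 12 enterocyte markers in CPM (axis in units of 1000), 1 point per library, colour by genotype and shape by day. The KO libraries of days 7 and 14 stand above all others for Gstm1, whereas for Ggt1 KO and WT libraries fall along the same range.

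Per kilobase of exon, the mean level over the 18 libraries was highest for Gstm3 with 211.5 CPM and Gstm1 with 208.5 CPM, followed by Mgst3 with 138.9, Gpx1 with 123.8 and Gsto1 with 107.4 CPM. The leading places of Gstm3 and Gstm1 held through the KO libraries of days 7 and 14. In WT mice the mean level per kilobase on day 2 was 177.8 CPM for Mgst3, 132.7 for Gpx1, 126.2 for Gsto1, 120.8 for Gstm3 and 50.27 for Gstm1, and on days 7 and 14 Gstm3 (78.89 and 71.47 CPM) and Gstm1 (37.23 and 32.18 CPM) were also below these 3. The levels of Mgst3, Gpx1 and Gsto1 overlapped between KO and WT on both days. Gsto2, with 0.159 CPM per kilobase, was lowest.

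Other genes of the pathway followed in part. These genes were listed with earlier results of these data known, so their counts are not independent of the data. Of 71 such genes, 64 were tested, of which 27 were higher and 5 lower on day 7 (median log2 fold change 0.49), against 7.11% and 10.2% of all genes. On day 14, 7 were higher and 3 lower (0.26), against 3.23% and 4.69% of all genes, and on day 2 edgeR called 0. Of 6 conjugate exporters 5 were higher on day 7, led by Abcc2, the canalicular multidrug resistance protein, with 1141 ± 314 CPM (SD, n = 3) in KO and 402 ± 48.7 CPM in WT (log2 fold change 1.51, adjusted p = 0.000407, edgeR) and 1.28 on day 14. Of 7 regulators 5 were higher on day 7, namely Nfe2l2, Nfe2l1, Bach1, Maff and Mafg with 0.54 to 0.69, and 0 on day 14. Among 10 genes of cysteine and NADPH supply, the NADPH-producing enzymes Me1 (1.86), Pgd (1.20) and G6pdx (1.04) were higher and Cdo1 (-1.20), the cysteine dioxygenase, was lower.

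Of 15 tested genes of glutathione breakdown and mercapturate formation, 5 were higher and 2 lower on day 7, with relatives of the acetyltransferase Nat8 on both sides. The counts of these smaller lists stand against the same 7.11% of all genes higher and 10.2% lower. Nat8f5 and Nat8f6 were higher on days 7 (1.53 and 1.502) and 14 (1.88 and 1.61), and Nat8f2 was lower on day 7 (-1.84). Ggt5, a transpeptidase related to Ggt1, was higher on day 7 at a low level of 0.926 CPM in KO (1.87). Of 7 tested transferase relatives, the alpha-like Gm3776 (1.93) and Gm10639 (1.78) were higher on day 7. Of 13 tested genes of the other peroxidases and the thioredoxin system 6 were higher and 2 lower, and of 6 glutaredoxins and glyoxalases 1, Hagh, was higher.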

How the data were processed

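RNA-Seq counts of 18 crypt libraries were read, 3 mice for each of the KO and WT groups on days 2, 7 and 14. The authors deposited raw counts per gene, made from 100 bp paired-end reads of ribosomal RNA-depleted total RNA with STAR 2.7.3 and featureCounts 1.6.4 on mm10. The file header names GENCODE release M23 (the methods name a later release), counting for every overlapping gene and no strand. Multi-mapped fragments were left out, which lowers genes with near copies, and an antisense neighbour cannot be told from the gene it overlaps. The values are whole numbers and were used as deposited, with 0 columns left unused.

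The members and gene lists were chosen with earlier results of these data known. The 20 sex-linked genes listed by the study were left out, genes were kept with filterByExpr by group, and 21349 genes were fitted with edgeR 4.0.16 (TMM, robust quasi-likelihood, R 4.3.3, limma 3.58.1) in 1 model of 18 libraries with 1 mean per group. P-values were adjusted by Benjamini-Hochberg over all genes tested, with a threshold of 0.05. The median total count was 21266804.5 per library. On simulated counts with changes of known size, the fit was checked to recover them.

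Members given in full are those called on day 7 or 14 with libraries apart, at most the 14 with the largest log2 fold change, and the 5 with the highest mean CPM per kilobase. Gpx2, Gstz1, Ggct and Ggt1 were added after their values were seen. Of the other pathway genes, the 8 with the largest called log2 fold change were named, and Hagh, Pgd, G6pdx, Cdo1 and the regulators were added after their values were seen. KO and WT share replicate numbers in the labels. Deviations from the group means of libraries with the same number correlated by 0.227, 0.18 and 0.159 on day 14, by 0.048, 0.158 and 0.381 on day 2 and by -0.159, 0.206 and 0.079 on day 7, so the numbers were taken to pair mice on day 14 only, from the data and not from the design. Alternatives were DESeq2 1.42.0, its size factors, no filter, a mean count of at least 50, the 20 most abundant genes left out, the sex list kept, only the groups compared, a replicate block and fits that left out a library. The replicate block within each day was added after seeing the data. Promoters came from RefSeq, and 100-base stretches from transcripts of an earlier GENCODE release of the same assembly than the one used for counting. Exon overlaps came from the exon coordinates deposited with the counts. Python 3.11.15, numpy 2.4.6, pandas 2.3.3 and matplotlib 3.10.9 were used for sequences and plots.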

Additional observations from a re-analysis of the deposited data

Results flagged for a closer look

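The KO effect differed between days 7 and 2 by an interaction test in edgeR for 12 genes, each with a larger log2 fold change of KO over WT on day 7. Gstm1 had the largest difference. The mu transferases differed by 4.516 for Gstm1 (adjusted p = 0.000565), 2.98 for Gstm3 (adjusted p = 0.00585), 2.103 for Gstm4 (adjusted p = 0.0278) and 1.471 for Gstm2 (adjusted p = 0.048). Of the alpha transferases, Gsta3 differed by 3.147 (adjusted p = 5.99e-05) and Gsta2 by 2.958 (adjusted p = 0.0032). Gclc differed by 1.466 (adjusted p = 0.00442), Gsr by 1.433 (adjusted p = 0.0116), Gpx3 by 1.363 (adjusted p = 0.0232), Gclm by 1.256 (adjusted p = 0.0198), Mgst1 by 1.139 (adjusted p = 0.0488) and Ggct by 0.784 (adjusted p = 0.0219). Gstm2 and Mgst1 lay closest to the threshold, and several calls rested on few libraries. Of the 12 fits that left out a library, 3 kept the call for Gstm2, 3 for Mgst1, 5 for Gstm4, 8 for Gclm, 8 for Ggct and 10 for Gpx3, while the other 6 genes kept it in all 12. The call for Mgst1 was also lost with the replicate block (adjusted p = 0.0703), with only the groups compared (adjusted p = 0.0844) and with the 20 most abundant genes left out (adjusted p = 0.0503), and those for Gstm2, Gstm4 and Ggct with no filter on low counts (adjusted p = 0.142, 0.0824 and 0.072).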

How the results depend on the processing

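Over the 40 members, the 5 comparisons of KO and the alternatives, 3335 values kept their call, 56 gained and 68 lost one, and no call turned its direction. Of the 68 lost, 21 were on day 7, 6 on day 14 (all Gstz1) and 41 in the difference between days 7 and 2. The count of members called was 21 on day 7 in the model reported (17.3% of all genes). It was 16 to 21 when each library of that day was left out (9.43% to 19%). On day 14 it was 6 (7.92%) and 5 to 10 (4.73% to 6.08%), the 10 being without WT day 14 replicate 2 (5.36%). A change of the KO effect from day 2 to day 7 was called for 12 members (4.37% of all genes). When a library was left out it was called for 7 to 16 (1.98% to 5.96%), with 7 without KO day 2 replicate 1 or 2, KO day 7 replicate 1 or WT day 7 replicate 3. On day 2, and between days 14 and 7, leaving out a library gave 0. DESeq2's Wald test called 11 on day 14, against 9.76% of all genes. It called 3 for WT day 7 against day 2 and 11 for WT day 14 against day 2 (9.46% and 8.66%). With no filter on low counts the day 14 minus day 7 difference gave 1 (0.00512% of all genes) and the WT comparisons gave 2 and 6 (2.59% in each). With a mean count of at least 50 the count was 9 on day 14 (8 higher, 1 lower), with Gsta1, Gsta4 and Gstm2 added. Of all genes 3.87% were higher and 5.92% lower there. For the difference between days 7 and 2 the count was 15 (6.44% of all genes), with Gstp1, Gstp2 and Mgst2 added. The WT comparisons gave 2 and 4 under that minimum (3.47% and 5.41%). With the 20 most abundant genes left out WT day 7 against day 2 gave 2 (1.35%). With only the groups compared the WT comparisons gave 3 and 0 (2.87% and 0.14%). Leaving out a library gave 0 to 2 (0% to 2.43%) and 0 to 6 (0.101% to 3.23%) for the WT comparisons. The cause of these differences was not tested.

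The replicate block over all days gave 0 for WT day 7 against day 2 and 1 for WT day 14 against day 2 (0.089% and 0.81% of all genes). It gave 21, 6 and 11 for KO against WT on days 7 and 14 and for the difference between days 7 and 2 (16.4%, 7.36% and 3.99%). The replicate block within each day, chosen after seeing the data, gave 15 on day 14 (14 higher and 1 lower), against 9.86% of all genes. It gave 23 on day 7, with Gstt1 and Oplah added, both lower, against 19.8% of all genes. For the difference between days 7 and 2 it gave 18, against 6.4% of all genes. By the labels same-numbered mice share only a number on every day, and the pairing on day 14 was read from the data. Depth limits Gsto2 and Gpx8 most, with at most 18 and 16 counts in a library.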
